A study of Arabidopsis thaliana with 6 samples.

Results

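Flavonols and anthocyanins are made by a single branching pathway, and the genes described here are 10 of its best known loci in *Arabidopsis thaliana*: the enzyme genes *CHS*, *CHI*, *F3H*, *F3'H*, *FLS1*, *DFR*, *LDOX* and *UF3GT* and the regulators *MYB75* and *TT8*. They were taken by locus identifier and are 10 of 28775 genes in the deposited count table. The seedlings were whole plants of accession Col-0 and of 2 transgenic lines in the Col-0 background, with 2 biological replicates of each genotype and 6 RNA-seq libraries in all. MA-Line1 carried *35S:MA-JcERFVII2*, in which alanine stands in place of the cysteine behind the starting methionine of this group VII ethylene response factor (ERFVII) of *Jatropha curcas*, and MC-Line3 carried the wildtype form, *35S:MC-JcERFVII2*. The CaMV 35S promoter of both constructs is active in most tissues, both lines were homozygous with a single insertion and carried a hygromycin resistance gene, and each form was represented by 1 line, so the form and the line cannot be told apart. No line with the empty vector was analysed here. All seedlings grew in air on solid Murashige and Skoog medium at 23 °C, with 16 h of light in each day and 8 h of darkness, and were harvested as the light period ended, at 10 d by the sample labels and at 7 d by the study's text.

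Group VII ERFs are destroyed in air through their N-terminal cysteine, and replacing that cysteine stabilizes the protein. Flavonoid synthesis starts from phenylalanine, which the general phenylpropanoid enzymes turn into coumaroyl-CoA. Chalcone synthase, chalcone isomerase and the hydroxylases F3H and F3'H then give dihydroflavonols, from which flavonol synthase makes flavonols, while DFR, LDOX and sugar-transferring enzymes such as UF3GT make anthocyanins. In Arabidopsis the genes up to *FLS1* are controlled chiefly by MYB11, MYB12 and MYB111, and those from *DFR* onwards by a complex of an R2R3 MYB such as MYB75, a bHLH protein such as TT8 and the WD40 protein TTG1. Anthocyanins colour stressed seedlings, and flavonols screen them from ultraviolet light.

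To show the DNA in front of the genes that the results turn on, the 250 bases before the annotated start of 6 members are printed here from the reference sequence of RefSeq, build TAIR10.1. *CHS* and *FLS1* are shown as genes of the early steps and the flavonol branch, and *DFR*, *LDOX*, *UF3GT* and *TT8* as the genes called higher in MA-Line1. Capitals mark exact matches, on either strand, to the G-box CACGTG, which bHLH and bZIP proteins bind, and to the AC elements that R2R3 MYB proteins bind, written ACCTACC in the type form, ACCAACC in the second form, ACCTAAC in the third form and ACCAAAC in the fourth form.
CHS (chr5:4488226-4488475, + strand): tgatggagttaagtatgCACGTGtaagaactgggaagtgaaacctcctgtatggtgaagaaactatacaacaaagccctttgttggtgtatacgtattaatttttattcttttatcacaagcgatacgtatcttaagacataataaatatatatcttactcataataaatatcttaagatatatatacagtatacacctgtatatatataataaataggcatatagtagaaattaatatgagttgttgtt
FLS1 (chr5:2803583-2803832, + strand): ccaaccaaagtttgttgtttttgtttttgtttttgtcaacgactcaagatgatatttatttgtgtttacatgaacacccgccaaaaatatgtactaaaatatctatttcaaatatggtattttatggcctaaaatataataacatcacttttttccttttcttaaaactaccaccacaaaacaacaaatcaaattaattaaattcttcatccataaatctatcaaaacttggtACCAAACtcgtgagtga
DFR (chr5:17166033-17166282, - strand): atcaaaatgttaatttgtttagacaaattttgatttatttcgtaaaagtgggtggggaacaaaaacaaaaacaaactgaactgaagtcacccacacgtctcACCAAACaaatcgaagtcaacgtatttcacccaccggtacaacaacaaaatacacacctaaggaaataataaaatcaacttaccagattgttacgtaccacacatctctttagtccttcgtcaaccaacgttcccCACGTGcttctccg
LDOX (chr4:12006210-12006459, - strand): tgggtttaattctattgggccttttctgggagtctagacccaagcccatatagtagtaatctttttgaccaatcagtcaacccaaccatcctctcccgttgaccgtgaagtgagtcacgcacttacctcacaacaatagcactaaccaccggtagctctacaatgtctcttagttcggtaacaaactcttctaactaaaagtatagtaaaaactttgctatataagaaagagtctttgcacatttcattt
UF3GT (chr5:21938397-21938646, - strand): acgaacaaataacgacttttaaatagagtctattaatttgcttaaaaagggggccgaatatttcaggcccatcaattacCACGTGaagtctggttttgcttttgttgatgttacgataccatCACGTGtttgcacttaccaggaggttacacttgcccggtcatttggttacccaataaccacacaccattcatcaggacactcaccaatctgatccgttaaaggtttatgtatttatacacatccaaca
TT8 (chr4:6181631-6181880, + strand): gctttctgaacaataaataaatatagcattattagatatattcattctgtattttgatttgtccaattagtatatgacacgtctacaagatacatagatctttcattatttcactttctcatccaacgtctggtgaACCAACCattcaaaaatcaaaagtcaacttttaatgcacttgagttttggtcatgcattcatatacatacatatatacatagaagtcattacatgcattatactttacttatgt

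A G-box stood in the windows of 4 of the 10 members, namely *CHS*, *F3H*, *DFR* and *UF3GT*, and was present in 6.58% of the 26709 windows of the same length before protein-coding genes. *UF3GT* had 2 of them, at positions -171 to -166 and -128 to -123 counted from the annotated start, and that of *DFR* lay at -14 to -9. An AC element stood before *FLS1*, *DFR*, *MYB75* and *TT8*, 4 of the 10, against 13.8% of all windows. *DFR* was the member with both kinds. The GCC box searched as GCCGCC, a motif that many ERF proteins bind, was in no member's window and in 1.85% of all windows, which says only that these letters are not in these 250 bases. No G-box overlapped an AC element in these 10 windows, and the windows of *CHI*, *F3'H* and *LDOX* held none of the motifs. The window of *F3H* lies partly within an exon of a gene on the other strand, which is described next.

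*F3H* (AT3G51240, chromosome 3, 19025192 to 19026872, forward strand), the enzyme that turns flavanones into dihydroflavonols, had a count of 0 in each of the 6 libraries. A count of 0 allows up to 3 counts, which is 0.0443 to 0.0558 CPM (counts per 1e+06 counts of the TMM-scaled library), for counting error only. In the TAIR10.1 annotation the noncoding locus AT3G51238 runs over it on the reverse strand and covers 1415 of its 1508 exon bases (93.8%), leaving 93 bases to *F3H* alone. AT3G51238 is itself a row of the count table and was also at 0 in all 6 libraries. Over the genome, 2613 of the 20234 protein-coding genes that share no exon base with other genes were at 0 throughout (12.9%). Of the 6153 that share some but under 90%, 225 were at 0 (3.66%). These classes were not matched for level of expression. Of the 323 that share at least 90% of their exon bases, 110 were at 0 (34.1%). Not every gene with such an overlap was at 0: *UGT89C1*, a flavonol rhamnosyltransferase that shares 99.6% of its exon bases with AT1G06002, had between 741 and 1318 counts per library, while AT1G06002 was at 0 in all 6. The part of the overlap in the zero of *F3H* was not tested, and the level of *F3H* is left out of every comparison. The other 9 members shared no exon base with another gene, apart from 2 bases of *CHS*, and all 9 passed the filter on low counts.

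**Figure D1:**
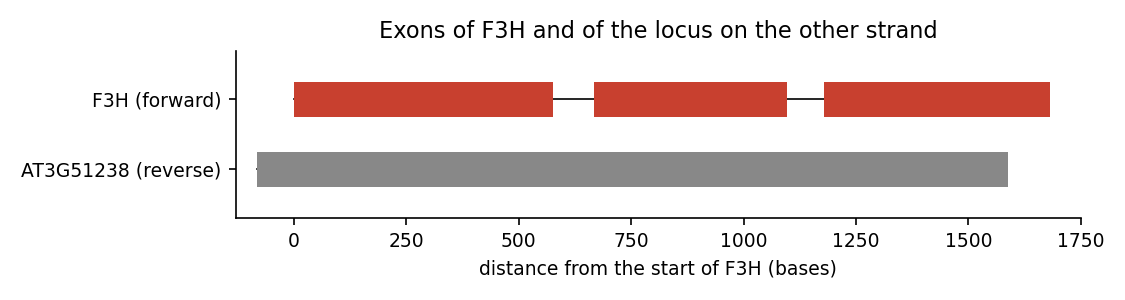
Exons of *F3H* (red) and of the locus AT3G51238 on the other strand (grey), drawn to scale as bases from the start of *F3H*. The single exon of AT3G51238 begins 82 bases before *F3H* and covers 1415 of its 1508 exon bases, and both loci had 0 counts in the 6 libraries.

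The libraries held between 53084008 and 65271057 counts on genes, and their TMM scaling factors lay between 0.92 and 1.06. Differences were tested with edgeR's quasi-likelihood test in 1 fit of all libraries, over 21206 genes, and a gene was called with a Benjamini-Hochberg adjusted p below 0.05. In MA-Line1 against Col-0, 37.1% of the tested genes were called, 18.0% higher and 19.1% lower. The shares were 31.2% in MC-Line3 against Col-0 (14.5% and 16.7%) and 20.0% in MA-Line1 against MC-Line3 (11.3% and 8.68%). With library size alone as the scale, the median log2 fold change of all genes against Col-0 moved from 0.01 to 0.18 for MA-Line1 and from 0.01 to 0.14 for MC-Line3. The share of calls that were higher then went from 48.4% to 73.5% and from 46.5% to 69.5%, and between the lines from 56.6% to 63.7%. Small differences from Col-0 below are therefore read against that shift. The labelled tissue was checked with marker genes. The 7 shoot markers summed to between 20761 and 26354 CPM, and 3 of them fell in MA-Line1 against Col-0 and 2 in MC-Line3. Of 6 flower and seed markers, the seed storage genes *CRC* and *AT2S3* were at 0 throughout. The 7 root markers summed to 32.7 and 29.6 CPM in Col-0, against 28.8 and 28.8 for MC-Line3 and 10.4 and 11.7 for MA-Line1. Of the Col-0 sums, *CASP1* alone gave 16.9 and 17.5 CPM. In MC-Line3 against Col-0, *PIN2* rose by 0.68 and *CASP1* fell by 0.41 (edgeR adjusted p = 0.0137 and 0.0323), and 5 root markers were not called. No root marker was at 0, and of the flower and seed markers, whose sum lay between 3.81 and 11.1 CPM, the floral gene *AP3* (1 and 7 counts in Col-0, 30 and 24 for MA-Line1) was called higher in MA-Line1 (edgeR adjusted p = 0.0436). That call was lost with DESeq2 and without either MA-Line1 library, and *AP3* could not be tested with at least 10 counts in every library. In MA-Line1, 6 of the 7 root markers fell against Col-0, or 3 without MA-Line1 replicate 2, and 6 against MC-Line3, or 3 without MC-Line3 replicate 2. In whole seedlings fewer root cells, less RNA per root cell and lower levels of these marker transcripts alone cannot be told apart. The part of this difference in the results below was not tested.

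Of the 9 members tested in MA-Line1 against Col-0, 4 rose and 1 fell, where 18.0% and 19.1% of all genes did so. The 4 were *DFR*, *LDOX*, *UF3GT* and *TT8*, by 3.68-fold to 6.03-fold, and the 1 was *CHS*. In MC-Line3 against Col-0, *DFR* and *LDOX* rose and *F3'H* fell (14.5% and 16.7% of all genes). In MA-Line1 against MC-Line3, *DFR*, *LDOX* and *UF3GT* were higher (11.3% of all genes), and edgeR called 0 members lower, as did DESeq2 and limma voom, with 0 lower also at an unadjusted p below 0.05. The 2 comparisons with Col-0 share the same control libraries, so they are not independent of each other. The CPM of the compared groups did not overlap for 6, 8 and 8 of the 9 members in these comparisons, against 70.4%, 64.6% and 62.1% of all tested genes, so non-overlap alone says little with 2 libraries a group. The median log2 fold change over the 9 members was 0.02 in MA-Line1 against Col-0, 0.06 in MC-Line3 against Col-0 and 0.56 in MA-Line1 against MC-Line3, beside 0.01, 0.01 and -0.01 over all genes tested.

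**Figure D2:**
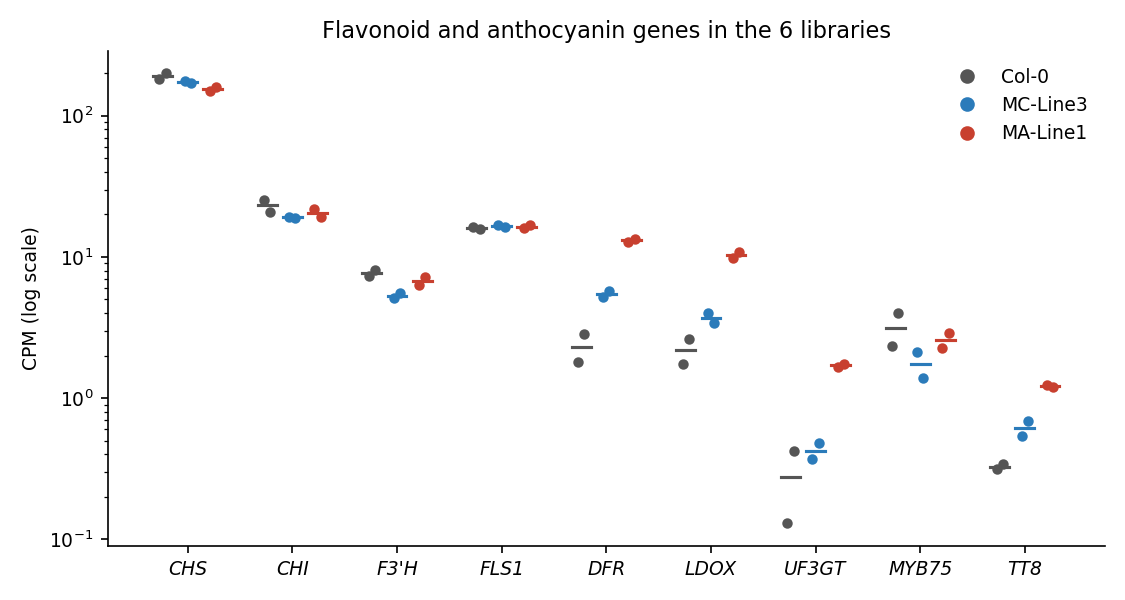
CPM of the 9 detected members on a log scale, with 1 point per library and a bar at the mean of 2 libraries, for Col-0 (grey), MC-Line3 (blue) and MA-Line1 (red). *DFR* stands at 1.80 and 2.83 CPM in Col-0 and at 12.7 and 13.5 in MA-Line1, while *FLS1* stays between 15.8 and 16.9 CPM in all 6 libraries.

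Among the genes of the early steps, *CHS* was called in MA-Line1 and *F3'H* in MC-Line3, and neither call held under all alternatives. *CHS* (AT5G13930, chromosome 5, 4488476 to 4490264, forward strand) encodes chalcone synthase, the first committed enzyme of the pathway. It was counted at 183 and 200 CPM in Col-0, against 176 and 170 for MC-Line3 and 149 and 159 for MA-Line1. The 3 genotypes did not overlap, with Col-0 on top and MA-Line1 at the bottom. By edgeR's quasi-likelihood test *CHS* fell by 0.31 in MA-Line1 (log2 scale, SE 0.08, adjusted p = 0.00886), that is to 0.805 of Col-0, and the difference of MC-Line3 was -0.15 (SE 0.08, adjusted p = 0.177). The call in MA-Line1 was lost with library size alone (log2 fold change -0.15, adjusted p = 0.145) and without MA-Line1 replicate 1 (-0.26, adjusted p = 0.129), and without Col-0 replicate 1 *CHS* was also called in MC-Line3 (-0.22, adjusted p = 0.027).

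*CHI* (AT3G55120, chromosome 3, 20430059 to 20431597, reverse strand), which closes the ring of the chalcone, had 25.5 and 20.8 CPM in Col-0, against 19.1 and 19.0 for MC-Line3 and 21.9 and 19.2 for MA-Line1. The ranges of Col-0 and MA-Line1 overlapped, and MC-Line3 lay below Col-0. *CHI* passed the test in no comparison: the log2 difference was -0.17 in MA-Line1 (95% interval -0.41 to 0.07) and -0.28 in MC-Line3 (-0.52 to -0.04, edgeR adjusted p = 0.0773). It was called lower without Col-0 replicate 2, at -0.30 in MA-Line1 (adjusted p = 0.0238) and -0.42 in MC-Line3 (adjusted p = 0.00362).

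*F3'H* (AT5G07990, chromosome 5, 2560328 to 2563137, forward strand) adds a hydroxyl group to the side ring and so sets the ratio of quercetin to kaempferol. Its values were 7.29 and 8.02 CPM in Col-0, against 5.09 and 5.55 for MC-Line3 and 6.28 and 7.20 for MA-Line1. Both MC-Line3 libraries lay below all others. It fell by 0.53 in MC-Line3 against Col-0 (log2 scale, SE 0.14, edgeR adjusted p = 0.0163), and the call was lost with library size alone (-0.40, adjusted p = 0.0516), without MC-Line3 replicate 1 (-0.47, adjusted p = 0.0943) and without MC-Line3 replicate 2 (-0.59, adjusted p = 0.0577). In MA-Line1 the log2 difference from Col-0 was -0.19 (95% interval -0.49 to 0.12).

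*FLS1* (AT5G08640, chromosome 5, 2803833 to 2805606, forward strand), the main flavonol synthase, was the steadiest member. It had 16.3 and 15.8 CPM in Col-0, against 16.9 and 16.4 for MC-Line3 and 15.9 and 16.7 for MA-Line1, and the libraries of Col-0 and MA-Line1 overlapped. Its log2 difference from Col-0 was 0.02 in MA-Line1 (95% interval -0.18 to 0.22) and 0.06 in MC-Line3 (-0.14 to 0.25), and between the lines it was -0.04 (-0.23 to 0.16). No call was made under any of the 15 alternatives.

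The 3 late enzyme genes of the anthocyanin branch rose in MA-Line1. *DFR* (AT5G42800, chromosome 5, 17164093 to 17166032, reverse strand) encodes dihydroflavonol reductase, which takes its substrate from the same pool as FLS1. It had 97 and 175 counts in Col-0, against 283 and 326 for MC-Line3 and 862 and 774 for MA-Line1, or 1.80 and 2.83, 5.24 and 5.76, and 12.7 and 13.5 CPM. The genotypes formed 3 separate steps, each MC-Line3 library above each Col-0 library and each MA-Line1 library above both. *DFR* was 5.62-fold higher in MA-Line1 than in Col-0 (log2 fold change 2.49, SE 0.19, edgeR adjusted p = 5.55e-06) and 2.36-fold higher in MC-Line3 (1.24, SE 0.19, adjusted p = 8.01e-04). MA-Line1 exceeded MC-Line3 2.38-fold (1.25, SE 0.17, adjusted p = 5.05e-04). All 3 calls held under the 15 alternatives.

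*LDOX* (AT4G22880, chromosome 4, 12004726 to 12006209, reverse strand) encodes the dioxygenase that makes the coloured anthocyanidins. It was at 1.73 and 2.63 CPM in Col-0, against 4.00 and 3.39 for MC-Line3 and 9.90 and 10.8 for MA-Line1, again without overlap between genotypes. The log2 fold change was 2.23 in MA-Line1 against Col-0 (SE 0.20, edgeR adjusted p = 1.50e-05) and 1.48 against MC-Line3 (SE 0.19, adjusted p = 2.64e-04), and both held under the 15 alternatives. The rise in MC-Line3 against Col-0 was smaller (0.75, SE 0.20, adjusted p = 0.0175). It was lost without Col-0 replicate 1 (0.48, adjusted p = 0.0639), without MC-Line3 replicate 1 (0.62, adjusted p = 0.12) and in a fit of only these genotypes (0.75, adjusted p = 0.0525).

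*UF3GT* (AT5G54060, chromosome 5, 21936746 to 21938396, reverse strand), also named UGT79B1, adds xylose to the sugar of anthocyanins and was the least counted enzyme. It had 7 and 26 counts in Col-0, against 20 and 27 for MC-Line3 and 113 and 100 for MA-Line1, or 0.130 and 0.420, 0.370 and 0.477, and 1.67 and 1.74 CPM. MA-Line1 stood apart from the other libraries, and Col-0 and MC-Line3 overlapped. The log2 fold change in MA-Line1 was 2.59 against Col-0 (SE 0.46, edgeR adjusted p = 0.00141), a 6.03-fold rise. The 2 Col-0 libraries differed so much that the value was 3.69 without Col-0 replicate 2 (adjusted p = 6.51e-05) and 2.02 without Col-0 replicate 1 (adjusted p = 0.00186). Against MC-Line3 it was 2.00 (SE 0.44, adjusted p = 0.00861), and this call was lost without MC-Line3 replicate 1 (1.85, adjusted p = 0.0896), without MC-Line3 replicate 2 (2.20, adjusted p = 0.0609), without MA-Line1 replicate 1 (2.03, adjusted p = 0.0508) and without MA-Line1 replicate 2 (1.97, adjusted p = 0.0554). In MC-Line3 against Col-0 the log2 difference was 0.59 (95% interval -0.54 to 1.72), or 1.68 without Col-0 replicate 2 (adjusted p = 0.053).

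Words of 50 bases found elsewhere in the genome made up 1.22% of *DFR*, 3.99% of *LDOX* and 4.24% of *UF3GT* and 0% of the other members.

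Among the regulators, *TT8* (AT4G09820, chromosome 4, 6181881 to 6186523, forward strand), the bHLH partner of the anthocyanin MYB proteins, had 17 and 21 counts in Col-0, against 29 and 39 for MC-Line3 and 83 and 69 for MA-Line1. In CPM these were 0.316 and 0.339, 0.536 and 0.689, and 1.23 and 1.20, in the same 3 steps as *DFR*. *TT8* rose 3.68-fold in MA-Line1 against Col-0 (log2 fold change 1.88, SE 0.37, edgeR adjusted p = 0.00263), a call that held under the 15 alternatives. The other differences did not pass the test, at 0.90 in MC-Line3 against Col-0 (95% interval 0.03 to 1.76, adjusted p = 0.106) and 0.98 in MA-Line1 against MC-Line3 (0.21 to 1.75, adjusted p = 0.0737). The last was called with at least 10 counts in every library (adjusted p = 0.0474), in the likelihood ratio test (0.0159) and in a fit of only the lines (adjusted p = 0.0412).

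*MYB75* (AT1G56650, chromosome 1, 21233555 to 21235292, reverse strand), also named PAP1, is the R2R3 MYB activator best known for purple seedlings. It did not follow *TT8* and *DFR*. Its values were 2.33 and 3.98 CPM in Col-0, against 2.13 and 1.38 for MC-Line3 and 2.28 and 2.90 for MA-Line1, and the wide range of Col-0 overlapped with that of MA-Line1, while MC-Line3 lay below both. The log2 difference from Col-0 was -0.29 in MA-Line1 (95% interval -0.93 to 0.35, edgeR adjusted p = 0.467) and -0.85 in MC-Line3 (-1.52 to -0.18, adjusted p = 0.0535). The latter was called lower without Col-0 replicate 1 (-1.19, adjusted p = 0.00231), without a filter on low counts (adjusted p = 0.0214), with DESeq2 (adjusted p = 0.0344) and in the likelihood ratio test (0.0239).

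**Figure D3:**
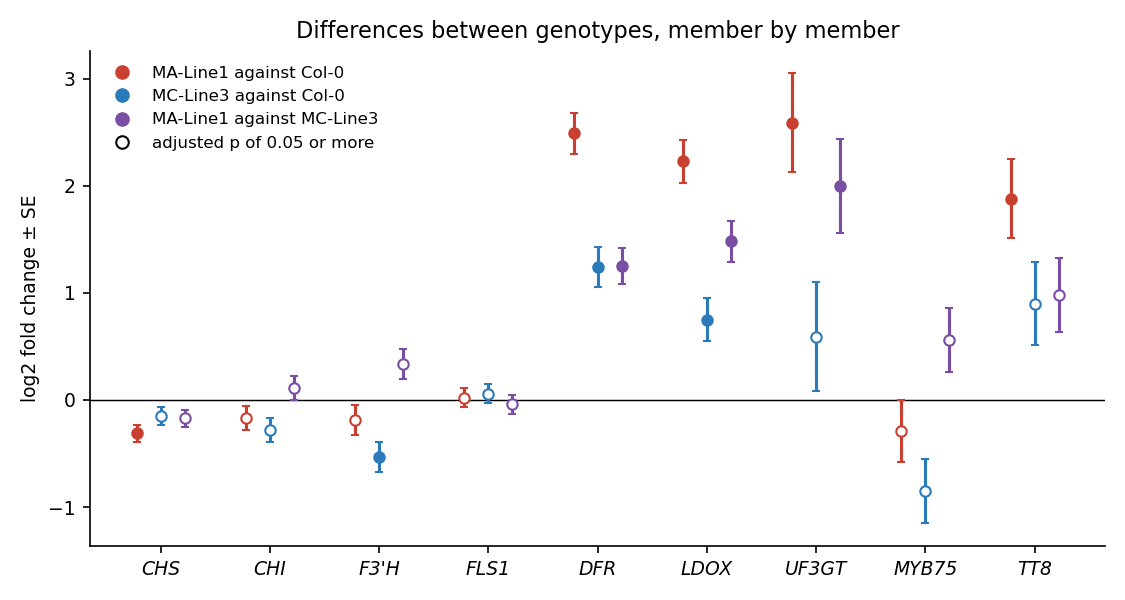
Log2 fold change with its SE for the 9 tested members in MA-Line1 against Col-0 (red), MC-Line3 against Col-0 (blue) and MA-Line1 against MC-Line3 (purple), filled where the adjusted p was below 0.05. The values of *DFR*, *LDOX*, *UF3GT* and *TT8* in MA-Line1 lie between 1.88 and 2.59, and those of *CHS*, *CHI*, *F3'H*, *FLS1* and *MYB75* between -0.31 and 0.02.

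Levels of different genes were compared as CPM per kilobase of exon. In Col-0 the order was *CHS* (112 ± 7.20, SD, n = 2), *CHI* (20.8 ± 2.93), *FLS1* (9.92 ± 0.209), *F3'H* (3.97 ± 0.264), *MYB75* (2.84 ± 1.05), *LDOX* (1.56 ± 0.456), *DFR* (1.52 ± 0.476), *UF3GT* (0.167 ± 0.124) and *TT8* (0.164 ± 0.00812). *LDOX* and *DFR* overlapped in Col-0, as did *UF3GT* and *TT8*, while the 2 libraries of *MYB75* (2.10 and 3.58) lay between those of *F3'H* and *LDOX*. In MA-Line1, *DFR* (8.62 ± 0.335) and *LDOX* (7.38 ± 0.436) had moved above *F3'H* (3.49 ± 0.337) and *MYB75* (2.34 ± 0.401) and stood next to *FLS1* (10.1 ± 0.324). *CHS* remained the most abundant member there, at 90.5 ± 4.50.

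The balance at the branch point was read as the ratio of *FLS1* to *DFR* counts per kilobase of exon within each library, which needs no scaling between libraries. The ratio was 8.47 and 5.25 in Col-0, against 3.04 and 2.68 for MC-Line3 and 1.17 and 1.16 for MA-Line1. Its mean was 6.86 ± 2.28 (SD, n = 2) in Col-0, 2.86 ± 0.255 for MC-Line3 and 1.17 ± 0.00777 for MA-Line1, with no overlap, while the *FLS1* counts alone differed from Col-0 by 0.06 and 0.02 on the log2 scale. The ratio of *DFR* to *CHS* was 0.0111 and 0.0158 in Col-0, against 0.0334 and 0.0379 for MC-Line3 and 0.0960 and 0.0946 for MA-Line1, and that of *LDOX* to *CHS* was 0.0115 and 0.0160, 0.0277 and 0.0242, and 0.0810 and 0.0821. No test was made on these ratios, and an exact permutation test of 2 libraries against 2 could not pass the threshold.

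**Figure D4:**
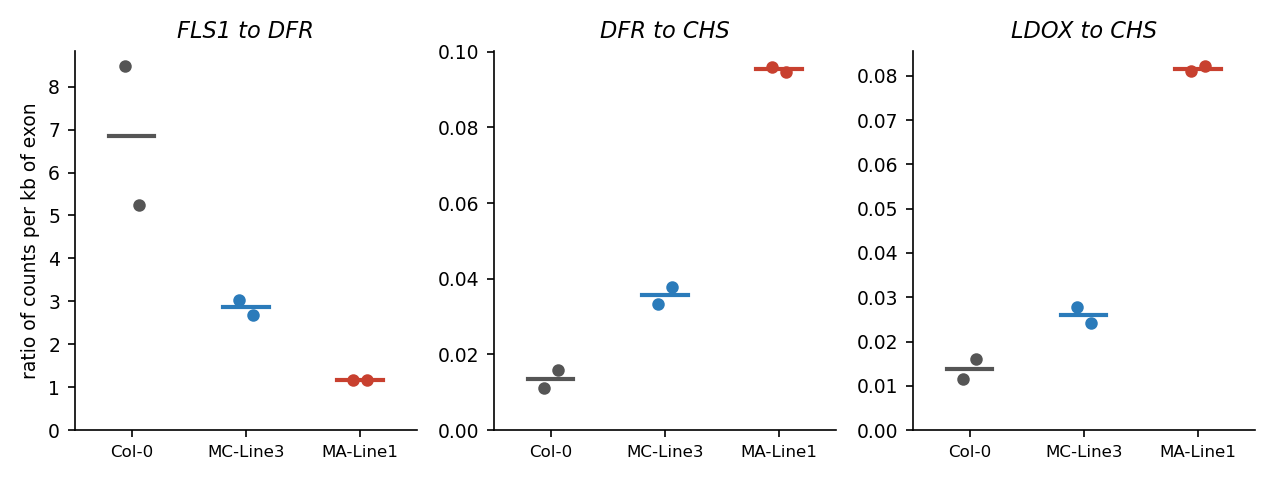
Ratios of counts per kilobase of exon within each library, with 1 point per library and a bar at the mean of 2, on axes that start at 0. The *FLS1* to *DFR* ratio is highest in Col-0 (8.47 and 5.25) and lowest in MA-Line1 (1.17 and 1.16), and both late genes take a larger share relative to *CHS* in MA-Line1.

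The other 50 genes listed for the pathway were described by role, and 44 of them passed the filter. In MA-Line1 against Col-0, 12 rose and 13 fell of the 44, where 18.0% and 19.1% of all genes did so, with a median log2 fold change of 0.01. In MC-Line3 against Col-0, 20 fell and edgeR called 0 higher (3 at an unadjusted p below 0.05, and 1 with DESeq2), beside 16.7% and 14.5% of all genes, with a median of -0.31. In MA-Line1 against MC-Line3, 16 were higher and *FLS5* was lower, beside 11.3% and 8.68% of all genes, with a median of 0.24. Without MC-Line3 replicate 2 the count of 20 came down to 6 and the 16 to 10. Without MA-Line1 replicate 2 the 13 came down to 7 and the 16 to 9, and without MA-Line1 replicate 1 the 12 and 13 came down to 7 and 8. *FLS5* was lost without MC-Line3 replicate 1 or MA-Line1 replicate 1, and without either Col-0 library 3 genes were lower.

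**Figure D5:**
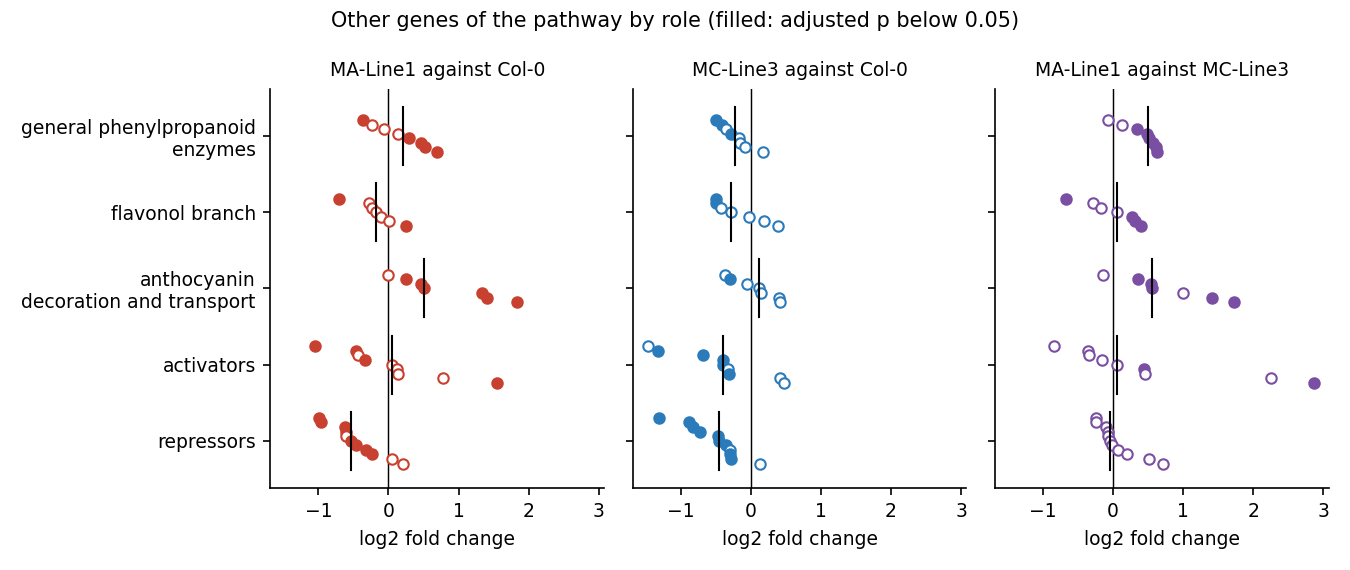
Log2 fold changes of the other pathway genes in the 3 comparisons, with 1 point per gene, filled where the adjusted p was below 0.05, and a vertical bar at the median of each role. Genes of anthocyanin decoration and transport have medians of 0.50, 0.12 and 0.55 in the panels from left to right, and repressors have -0.54, -0.45 and -0.04.

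The genes that decorate and move anthocyanins, downstream of *LDOX*, included *GSTF12*, which had the largest log2 fold change among the other pathway genes called higher in MA-Line1 against Col-0. Of 7 genes, 6 rose in MA-Line1 against Col-0 (median 0.50), beside 18.0% of all genes, and *SCPL10* was not called. In MC-Line3 only *BGLU10*, a gene with 14.2% of its 50-base words elsewhere, was called. *BGLU10* fell by 0.30 (median of the 7 genes 0.12), where 16.7% of all genes fell. MA-Line1 exceeded MC-Line3 in 5 of the 7 (median 0.55), beside 11.3% of all genes. Without MA-Line1 replicate 1 the 6 came down to 3. The fall of *BGLU10* was lost with library size alone (adjusted p = 0.147), without Col-0 replicate 1 (0.0675) and without any library of MC-Line3 (0.0639 and 0.144) or MA-Line1 (0.0508 and 0.0509), and its rise in MA-Line1 (0.25, adjusted p = 0.0416) was lost without Col-0 replicate 2 (0.136) and without any library of MC-Line3 (0.0552 and 0.0609) or MA-Line1 (0.283 and 0.0974). *GSTF12* is also named TT19 and carries anthocyanins to the vacuole. It had 2.27 and 2.08 CPM in Col-0, against 3.03 and 2.76 for MC-Line3 and 7.49 and 7.95 for MA-Line1, and rose 3.55-fold in MA-Line1 (log2 fold change 1.83, SE 0.16, edgeR adjusted p = 1.55e-05). *UGT75C1*, an anthocyanin glucosyltransferase, was at 1.60 and 1.78 CPM in Col-0, against 1.48 and 1.13 for MC-Line3 and 3.98 and 4.63 for MA-Line1, and rose 2.54-fold (1.34, SE 0.22, adjusted p = 7.91e-04). These genes share 9.85% and 14.0% of their exon bases with neighbours. *5MAT*, a malonyltransferase, rose 2.64-fold (1.40, SE 0.35, adjusted p = 0.00993), though not without MA-Line1 replicate 1 (1.26, adjusted p = 0.0841). *3AT2*, a coumaroyltransferase, rose by 0.50, but 40.8% of its 50-base words occur elsewhere, as do 39.9% of those of its neighbour in sequence *3AT1*, so their counts are uncertain. Of the 5 genes of the proanthocyanidin branch of the seed coat, 3 had at most 3 counts in any library. *BAN*, which competes with the anthocyanin enzymes for the product of LDOX, had at most 1. The proton pump gene *AHA10* lay between 1.23 and 2.42 CPM, with overlap between all genotypes, and *TT10*, a laccase gene, lay between 0.129 and 0.452 CPM. Of these last genes edgeR called 0 of 2 in any comparison, with 0 at an unadjusted p below 0.05 and 0 with DESeq2.

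Upstream of *CHS*, most general phenylpropanoid genes were called higher when MA-Line1 was compared with MC-Line3. Of 8 genes, 4 rose against Col-0 and *PAL4* fell by 0.37 (median 0.21), and 6 were above their level in MC-Line3 (median 0.50). Of all genes tested, 18.0% rose and 19.1% fell in MA-Line1 against Col-0, and 11.3% were higher than in MC-Line3. In MC-Line3 against Col-0, *PAL2*, *PAL4* and *4CL1* fell, by 0.41, 0.49 and 0.28 (median -0.22), beside 16.7% of all genes. These falls were lost without MC-Line3 replicate 2 (adjusted p = 0.063, 0.051 and 0.131), that of *4CL1* also without MC-Line3 replicate 1 (0.0545), without either MA-Line1 library (0.0508 and 0.051) and with library size alone (0.154). The fall of *PAL4* in MA-Line1 was lost without MA-Line1 replicate 1 (adjusted p = 0.0915) or 2 (0.13) and with library size alone (0.158). *C4H*, the single cinnamate hydroxylase, had 289 and 285 CPM in Col-0, against 347 and 301 for MC-Line3 and 458 and 465 for MA-Line1, a rise of 0.69 in MA-Line1 (log2 scale, SE 0.08, edgeR adjusted p = 1.01e-04). *PAL1*, a phenylalanine ammonia-lyase, had 210 and 199 CPM in Col-0, against 199 and 187 for MC-Line3 and 287 and 300 for MA-Line1, a rise of 0.52 (SE 0.07, adjusted p = 3.21e-04). In both genes each MA-Line1 library lay above the other 4. The ligase genes *4CL1* and *4CL2* were above MC-Line3 by 0.57 and 0.63 in MA-Line1 (adjusted p = 4.04e-04 and 0.00252). Their rises against Col-0 were 0.29 and 0.46, and the first was lost without MA-Line1 replicate 1 (adjusted p = 0.0815) or 2 (0.102) and the second without MA-Line1 replicate 2 (0.056), which left 2 of the 4 rises. *4CL3*, the ligase held to serve flavonoids, had 6.44 and 6.42 CPM in Col-0, against 4.51 and 5.55 for MC-Line3 and 6.93 and 7.13 for MA-Line1, and its log2 difference of 0.48 between the lines (adjusted p = 0.039) was lost without MC-Line3 replicate 1 (0.35, adjusted p = 0.22) or either MA-Line1 library (0.50 and 0.46, adjusted p = 0.153 and 0.19).

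The flavonol branch beside *FLS1* showed no common direction. Of 7 genes tested in MA-Line1 against Col-0, *UGT78D1* rose by 0.25 (adjusted p = 0.0241) and *FLS3* fell (median -0.18), shares no larger than the 18.0% and 19.1% of all genes. In MC-Line3, *UGT78D2* and *UGT89C1* fell (median -0.28), beside 16.7% of all genes. MA-Line1 exceeded MC-Line3 in these last genes and in *UGT78D1*, and was lower in *FLS5* (median 0.05), beside 11.3% and 8.68% of all genes. The rise of *UGT78D1* was lost without Col-0 replicate 1 (adjusted p = 0.0564), MA-Line1 replicate 1 (0.072) or MA-Line1 replicate 2 (0.21). The differences of *UGT78D1* and *UGT78D2* between the lines, 0.27 and 0.31, were lost without any of the 4 libraries (adjusted p from 0.0821 to 0.268 and from 0.0529 to 0.131), and that of *UGT89C1*, 0.40, without MC-Line3 replicate 1 (0.137), MC-Line3 replicate 2 (0.0745) or MA-Line1 replicate 2 (0.233). *CHIL*, which assists chalcone synthase, lay between 19.0 and 23.3 CPM in all libraries. *UGT78D2*, which puts glucose on flavonols and anthocyanidins, had 36.8 and 36.2 CPM in Col-0, against 25.5 and 26.5 for MC-Line3 and 31.9 and 32.7 for MA-Line1, and fell by 0.49 in MC-Line3 (log2 scale, SE 0.07, edgeR adjusted p = 6.98e-04). *UGT89C1* also fell in MC-Line3, by 0.50 (SE 0.11, adjusted p = 0.00477), and its partner AT1G06002, which covers 99.6% of its exon bases on the other strand, was at 0 in every library. Of the homologues of *FLS1*, *FLS3* fell by 0.71 in MA-Line1 against Col-0 (adjusted p = 0.0126, and 0.0984 without MA-Line1 replicate 2), and *FLS5* was 0.67 lower in MA-Line1 than in MC-Line3 (adjusted p = 0.00755), a call lost without MC-Line3 replicate 1 (-0.42, adjusted p = 0.112) and without MA-Line1 replicate 1 (-0.62, adjusted p = 0.0676).

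Of the 11 other activators, 9 were tested. In MA-Line1 against Col-0, *MYB90* rose and *MYB12*, *TTG1* and *HY5* fell (median 0.05), and in MC-Line3 these 4 and *HYH* fell (median -0.39). That is 1 higher and 3 lower of the 9 in MA-Line1, and 5 lower in MC-Line3. Of all genes tested, 18.0% rose and 19.1% fell in MA-Line1 against Col-0, and 16.7% fell in MC-Line3. With library size alone, activators called lower came down from 3 to 2 in MA-Line1 and from 5 to 3 in MC-Line3. In MC-Line3, 1 was then called higher, and the median was -0.26. *MYB90* (PAP2, AT1G66390) is the closest relative of *MYB75*. It had 88 and 177 counts in Col-0, against 64 and 36 for MC-Line3 and 435 and 391 for MA-Line1, or 1.64 and 2.86, 1.18 and 0.636, and 6.43 and 6.80 CPM. MA-Line1 stood above Col-0 and MC-Line3 below it. *MYB90* rose 2.92-fold in MA-Line1 (log2 fold change 1.55, SE 0.28, edgeR adjusted p = 0.00154) and fell by 1.32 in MC-Line3 (log2 scale, SE 0.32, adjusted p = 0.0108), the latter not without MC-Line3 replicate 2 (-0.93, adjusted p = 0.113). MA-Line1 exceeded MC-Line3 7.28-fold (2.86, SE 0.31, adjusted p = 9.09e-05). Of its 50-base words 4.44% occur elsewhere. The neighbouring genes *MYB113* and *MYB114*, of the same family, had low counts: *MYB114* had 0 and 0 counts in Col-0, against 0 and 1 for MC-Line3 and 12 and 6 for MA-Line1, which did not pass the filter. Without a filter on low counts 2 activators in place of 1 were called higher in MA-Line1. *MYB12*, the activator of *CHS* and *FLS1*, had 2.75 and 2.54 CPM in Col-0, against 1.72 and 1.57 for MC-Line3 and 1.26 and 1.30 for MA-Line1, and fell by 1.05 in MA-Line1 (SE 0.23, adjusted p = 0.00469). *TTG1* of the MYB and bHLH complex fell by 0.47 in MA-Line1 (SE 0.09, adjusted p = 0.00268). *HYH*, a bZIP protein of light signalling, fell by 0.39 in MC-Line3 (adjusted p = 0.00693, and 0.0714 without MC-Line3 replicate 2) and differed from Col-0 by 0.05 in MA-Line1. The 5 falls in MC-Line3 had edgeR adjusted p from 0.00693 (*HYH*) to 0.0409 (*MYB12*). Each of these calls was lost when MC-Line3 replicate 2 was left out, and some were lost without MC-Line3 replicate 1. *MYB12* (-0.68, adjusted p = 0.0409) was lost without any one of the 6 libraries (adjusted p from 0.0575 to 0.175). *TTG1* (-0.31, adjusted p = 0.0259) was lost without any library but Col-0 replicate 2 (adjusted p from 0.0529 to 0.144). *HY5* fell by 0.39, which was lost without MC-Line3 replicate 1 (adjusted p = 0.0501) or 2 (0.0574), and its fall of 0.34 in MA-Line1 was lost without Col-0 replicate 1 (0.0512), MA-Line1 replicate 1 (0.0557) or MA-Line1 replicate 2 (0.147).

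Most of the repressors fell in both lines. Of 11, 8 fell in MA-Line1 against Col-0 (median -0.54) and 9 in MC-Line3 (median -0.45), beside 19.1% and 16.7% of all genes, and with library size alone these were 6 and 7. Without either MA-Line1 library the 8 came down to 5, and without MC-Line3 replicate 2 the 9 came down to 4. Between the lines edgeR called 0 of the 11, with 1 higher and 1 lower at an unadjusted p below 0.05, 0 with DESeq2 and 1 lower with limma voom, and without either Col-0 library 2 were lower. *MYBL2*, an R3 MYB that binds TT8 and blocks the anthocyanin complex, had 194 and 130 CPM in Col-0, against 98.7 and 98.3 for MC-Line3 and 83.3 and 82.2 for MA-Line1, and fell by 0.97 in MA-Line1 (SE 0.14, edgeR adjusted p = 4.13e-04) and by 0.72 in MC-Line3 (SE 0.14, adjusted p = 0.00338). *KFB-CHS*, an F-box protein that targets the CHS protein for degradation, had 716 and 487 CPM in Col-0, against 341 and 311 for MC-Line3 and 291 and 317 for MA-Line1, and fell by 0.99 (SE 0.14, adjusted p = 4.02e-04) and 0.88 (SE 0.14, adjusted p = 0.00111). In both genes Col-0 replicate 1 was the highest library and Col-0 replicate 2 lay nearer to the lines. *MYB7* fell in both lines as well, by 0.62 in MA-Line1 (adjusted p = 0.00692, and 0.0549 without MA-Line1 replicate 2) and by 0.82 in MC-Line3 (adjusted p = 0.00197), and *TRY* in MC-Line3, by 1.31 (adjusted p = 0.00606, and 0.0601 without MC-Line3 replicate 2).

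The genes outside these lists whose log2 CPM followed *CHS* most closely over the 6 libraries were AT4G17215, AT5G51470, AT4G39360, AT3G45410 and AT4G33610, with Pearson correlations of 0.999, 0.997, 0.995, 0.995 and 0.994. The annotation gave no symbol other than the locus identifier for any of these genes. AT4G17215 had 6.35 and 8.26 CPM in Col-0, against 5.83 and 5.37 for MC-Line3 and 3.75 and 4.47 for MA-Line1. The 6 points are 3 pairs of replicates that share a genotype, and 193 of the 21136 genes compared correlated with *CHS* above 0.95, so the order is a description of these libraries.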

How the data were processed

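RNA-seq was done by the authors on polyA RNA of whole seedlings, with unstranded TruSeq v2 libraries and paired-end reads that were cleaned (FASTX toolkit, then Trimmomatic), aligned to TAIR10 with TopHat2 and counted per gene with HTSeq. The strand setting, counting mode and annotation release are not given in the sources used here. The deposited values are whole-number counts without normalization, with 53084008 to 65271057 counts per library, and 0 columns of per-sample values were left unmapped. In the table the MC columns carry line number 1 where the labels give line 3, and they were assigned by construct and replicate number. *JcERFVII2* is not in the table, so the transgene could not be checked.

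Counts were analysed in R 4.3.3 with edgeR 4.0.16 (TMM, default expression filter, 1 fit with a mean per genotype). The 3 comparisons used the quasi-likelihood test with Benjamini-Hochberg adjustment over 21206 genes and a threshold of 0.05. The SE is the log2 fold change over the square root of F, and 95% intervals use the degrees of freedom of the same fit. CPM use TMM-scaled library sizes, and correlations use log2 CPM with a prior count of 2. Exon lengths, overlaps, 50-base words and the 250-base windows come from TAIR10.1, which held 28009 of the 28775 genes (97.3%). RefSeq protein sequences were not used here. Alternatives were scaling by DESeq2 size factors or by library size alone, 2 other filters, DESeq2 1.42.0, the likelihood ratio test, voom in limma 3.58.1, a fit of only the genotypes compared, the replicate number as a block and leaving out each library. The fit was tested on simulated counts with changes put into MA-Line1, at a dispersion that was set and not taken from these data. Against Col-0 it called 45 of 50 genes raised 2-fold and 36 of 50 lowered to 0.5. It called 10 of 50 raised 1.5-fold and 6 of 50 lowered to 0.667, so most changes of that size were missed there. Members and lists were chosen with earlier results of these data known. Named genes were all members, up to 4 called genes per list with the largest difference, genes next to a member's step, and the 5 genes most correlated with *CHS*. *MYB113*, *MYB114*, *3AT1*, *BGLU10*, *SCPL10*, *PAL2*, *PAL4*, *HY5*, *AHA10*, *TT10*, *AP3*, *PIN2* and *CASP1* were added after their values were seen.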

Additional observations from a re-analysis of the deposited data

Results flagged for a closer look

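For 17 of the genes named by the rule the difference between MA-Line1 and MC-Line3, which is the difference of their effects against the shared Col-0 libraries, passed edgeR's quasi-likelihood test at an adjusted p below 0.05 over all genes tested. Of all genes tested, 20.0% passed in this comparison. Genes outside the members were named mostly for a call in any comparison, this one included, so the count of 17 partly follows from the rule. Among the members the log2 difference was 1.25 for *DFR*, 1.48 for *LDOX* and 2.00 for *UF3GT*, each higher in 2 of 2 MA-Line1 libraries than in either MC-Line3 library. Of all tested genes, 62.1% had no overlap between these groups, so that alone says little. *MYB90* had the largest log2 difference among the 17, at 2.86. It was called higher than Col-0 in MA-Line1 and lower in MC-Line3, as were *4CL1* and *BGLU10*. Of the genes for decoration and transport, *UGT75C1* differed by 1.72, *GSTF12* by 1.41 and *3AT2* by 0.55. In the general phenylpropanoid steps the values were 0.63 for *4CL2*, 0.61 for *PAL1*, 0.57 for *4CL1*, 0.51 for *C4H* and 0.48 for *4CL3*. *HYH* differed by 0.44, *UGT89C1* by 0.40, *UGT78D2* by 0.31 and *UGT78D1* by 0.27, and *FLS5* was lower in MA-Line1, at -0.67. *BGLU10* (0.54), *3AT1* (0.35) and *PAL2* (0.34), which were named after their values were seen, passed as well.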

How the results depend on the processing

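Of the single-gene values under 15 alternatives, none changed direction after a call. For the members, 380 kept their side of the threshold, 10 came to pass it and 12 no longer did, and for the other pathway genes these were 1830, 39 and 104. *UF3GT* could not be tested with at least 10 counts in every library. With library size alone, 0 members were lower against Col-0 for MA-Line1 and 0 for MC-Line3 (1 in each as reported), and 5 other pathway genes in place of 0 were higher in MC-Line3. In MC-Line3 the count of members lower was 2 without a filter, 2 with DESeq2 and 2 with the likelihood ratio test, other pathway genes higher were 1, 1 and 2 in these, and 1 member in place of 2 was higher in the fit of only the genotypes compared. Between the lines 2 other pathway genes were lower without a filter, 2 in the likelihood ratio test, 2 with limma voom and 3 in the fit of only the lines, against 1 as reported. With coding length in place of exon length the *FLS1* to *DFR* ratio was 10.3 and 6.35 in Col-0 replicates 1 and 2. Its mean was then 3.46 for MC-Line3 and 1.41 for MA-Line1, as the change rescales every library by the same factor.

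Leaving out 1 library at a time, members lower against Col-0 numbered 0 to 2 for MA-Line1 and 0 to 3 for MC-Line3, and members higher numbered 1 to 2 in MC-Line3 and 2 to 3 between the lines. Other pathway genes numbered 7 to 11 higher and 7 to 15 lower for MA-Line1, 0 to 1 higher and 6 to 20 lower for MC-Line3, and 9 to 17 higher and 0 to 3 lower between the lines. The *FLS1* to *DFR* ratio ran from 5.25 to 8.47 in Col-0, from 2.68 to 3.04 in MC-Line3 and from 1.16 to 1.17 in MA-Line1. Where 1 library of a genotype is left, it is assumed to vary like the others.

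Libraries with the same replicate number did not deviate together, with correlations of 0.03 between Col-0 and MC-Line3, -0.05 between Col-0 and MA-Line1 and -0.01 between the lines. With a replicate block the members called were 4 higher and 1 lower for MA-Line1, 2 and 1 for MC-Line3 and 3 and 0 between the lines, as without it, and 1 other pathway gene in place of 0 was higher in MC-Line3. The cause of these changes was not tested. Depth limits *TT8* and *UF3GT* most, with counts as low as 17 and 7 in Col-0. Intervals rest on a spread shared by all genotypes in 1 fit, not on each genotype's own. Col-0 replicates differed most, with an SD of their log2 difference of 0.397, above 0.32 (MA-Line1) and 0.335 (MC-Line3). When only the genotypes compared were fitted, genes called against Col-0 went from 7864 to 7199 for MA-Line1 and from 6618 to 5215 for MC-Line3. Between the lines they went from 4242 to 5963.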
